A study of Ovis aries with 15 samples.

Results

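The genes described here are 9 genes of T lymphocytes, measured by RNA sequencing in sheep kidney: CD3E, CD3D and CD247 of the T cell receptor complex, the coreceptors CD4 and CD8A, the surface receptors CD2 and CD5, and the kinases LCK and ZAP70. They were chosen by name as textbook T cell markers, with their FPKM values in these libraries already known, since 2 libraries (AFB1 replicate 2 and AFB1_CUR replicate 2) were rich in leukocyte transcripts. Those levels are therefore a description and carry no test. Of the 9 genes, 8 had a row under their symbol among the 25592 genes of the file, and all 8 were among the 13193 genes that passed the filter on low values, which kept genes that reached 1 FPKM in 5 or more libraries. ZAP70 had no row under its symbol. A row described as tyrosine-protein kinase ZAP-70 (LOC101112639) is given beside the members and is not counted among them, as is a row described as the CD3 gamma chain (LOC443398).

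The kidneys came from 4-month-old male sheep, crosses of Dorper with Small-tailed Han. The CON group ate a total mixed ration. The same ration carried aflatoxin B1, a mould toxin, at 500 µg per kg of dry matter in the AFB1 group, and the same dose of toxin with 800 mg of curcumin per kg of dry matter in the AFB1_CUR group. All groups were fed for 21 days and held 6 sheep each, and 5 libraries per group were analysed, each from a separate sheep. Sheep were penned in pairs, and the labels do not tie libraries to pens.

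T cells recognise antigen through a receptor whose alpha and beta, or gamma and delta, chains bind the antigen and whose CD3 and zeta chains carry the signal into the cell. CD4 and CD8 bind MHC molecules and bring the kinase LCK to the receptor, and LCK phosphorylates the CD3 and zeta chains, to which ZAP-70 then binds. In healthy kidney, T cells are a minor population between the tubules, and ruminants carry a large share of gamma delta T cells, many of them with WC1 coreceptors.

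Total counts per library lay between 50255295 and 68747047. The library labelled AFB1 replicate 1 stood apart: its hepatocyte gene score, the mean log2(FPKM + 1) of 19 genes, was 10.4, against 1.15 to 2.46 in the other 14 libraries, and for 8 genes of the proximal tubule the like mean was 0.831 there and 6.60 to 8.32 elsewhere. The kidney label of that library was thus not borne out by its markers, and each fitted comparison of the T cell genes that holds it is given with and without it. The 12 libraries other than AFB1 replicate 1 and the leukocyte-rich AFB1 replicate 2 and AFB1_CUR replicate 2 served as the reference for folds within a gene.

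In the deposited file, whose genome build is not named, CD3E lay on the plus strand of chromosome 15 from 28746217 to 28756838 and CD3D on the minus strand from 28761341 to 28765723, with 4502 bases between them. The CD3 gamma row followed on the plus strand from 28767190 to 28778970, 1466 bases past CD3D. CD247 was placed on chromosome 1 from 119638494 to 119723234 and CD2 on the same chromosome from 94156746 to 94171365. Chromosome 3 held CD4 (209470950 to 209494966), CD8A (58631415 to 58638744) and the ZAP-70 row (103404268 to 103436154). CD5 lay on chromosome 21 from 34794656 to 34816787 and LCK on chromosome 2 from 235268263 to 235288875. None of these 10 rows overlapped another gene of the file.

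Among the CD3 and zeta chains, CD3E, an invariant signalling chain, was the most abundant on the FPKM scale, which is per length of transcript. Its FPKM in the CON libraries was 10.5, 12.3, 8.56, 7.94 and 3.72. In the AFB1 libraries it was 6.03, 24.3, 9.14, 9.05 and 5.64. The AFB1_CUR libraries held 8.33, 27.6, 10.3, 8.71 and 11.8. The second replicates of the AFB1 and AFB1_CUR groups thus stood above all other libraries, CON replicate 5 stood lowest, and the rest of the 3 groups overlapped. Group means were 8.61 ± 3.23 (SD, n = 5) for CON, 10.8 ± 7.71 for AFB1 (12.04 ± 8.34 without replicate 1, n = 4) and 13.3 ± 8.08 for AFB1_CUR. Whether more T cells or more RNA per T cell gave a higher value cannot be told apart in bulk tissue, here or for any gene below.

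CD3D, a second invariant chain of the complex, had lower levels, with the same libraries at the top and CON replicate 5 again at the bottom. CON libraries gave an FPKM of 5.20, 6.05, 4.33, 3.09 and 1.64. AFB1 libraries gave 2.59, 14.2, 5.23, 6.73 and 3.44. AFB1_CUR libraries gave 5.43, 22.5, 4.81, 4.42 and 7.03. The ratio of CD3D to CD3E in a library was 0.389 to 0.743 in the 12 reference libraries, 0.585 in AFB1 replicate 2 and 0.817 in AFB1_CUR replicate 2, so CD3D exceeded the range of that ratio only in the last. CD247, the zeta chain that carries most of the phosphorylation sites, had an FPKM of 2.099 to 7.68 in CON, 2.92 to 14.6 in AFB1 and 5.69 to 17.1 in AFB1_CUR.

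The CD3 gamma row, added after its values could be seen and described in the file also by a second, unrelated protein match, was the least abundant. Its FPKM was 1.53, 1.21, 1.02, 0.648 and 0.377 in CON, 0.749, 3.22, 0.887, 0.959 and 0.623 in AFB1, and 1.33, 6.18, 1.40, 1.83 and 1.60 in AFB1_CUR. Apart from AFB1 replicate 2, every AFB1 library lay below every AFB1_CUR library for this row. CON and AFB1_CUR overlapped.

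Of the coreceptors, CD8A of cytotoxic T cells and some natural killer cells was above CD4 of helper T cells in all libraries but 1. CD4 FPKM was 1.97, 2.73, 1.92, 1.02 and 0.541 in CON. It was 0.724, 7.18, 1.94, 1.18 and 1.11 in AFB1, and 1.12, 9.43, 1.79, 2.22 and 2.08 in AFB1_CUR. CD4 was the member with the widest contrast between the leukocyte-rich libraries and the rest. CD8A FPKM was 3.87, 5.27, 3.83, 3.03 and 2.24 in CON and 5.07, 10.5, 4.85, 3.9999 and 2.69 in AFB1. In AFB1_CUR it was 4.75, 9.04, 3.42, 2.65 and 6.94. CD8A was the only member that was higher in AFB1 replicate 2 than in AFB1_CUR replicate 2, and the only one above its 12-library median in the liver-like AFB1 replicate 1.

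CD2, an adhesion receptor that T and natural killer cells use to bind target cells, had an FPKM of 10.3, 10.1, 7.12, 4.70 and 2.77 in CON. AFB1 libraries held 5.57, 23.7, 16.6, 8.62 and 4.27, and AFB1_CUR libraries 6.82, 34.3, 9.23, 8.34 and 9.52. Here AFB1 replicate 3 also stood above the CON group and above the AFB1_CUR libraries other than replicate 2. CD5, a receptor that dampens signalling from the T cell receptor and is carried by some B cells too, was at 0.857 to 3.81 in CON. It was at 0.899 to 6.46 in AFB1 and at 2.01 to 8.76 in AFB1_CUR, and its 4 AFB1_CUR libraries other than replicate 2 lay within 2.01 to 2.46.

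LCK, the kinase that starts receptor signalling, had an FPKM of 5.92, 7.48, 4.92, 3.40 and 1.84 in CON. AFB1 libraries gave 3.26, 13.0, 5.46, 4.48 and 3.95, and AFB1_CUR libraries 4.81, 18.5, 5.18, 4.22 and 7.44. The highest 2 libraries and the lowest were again those of CD3E. In the ZAP-70 row, which stands for the kinase that LCK activates, FPKM was 1.33 to 4.51 in CON, 2.68 to 10.3 in AFB1 and 3.30 to 11.97 in AFB1_CUR.

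**Figure D1:**
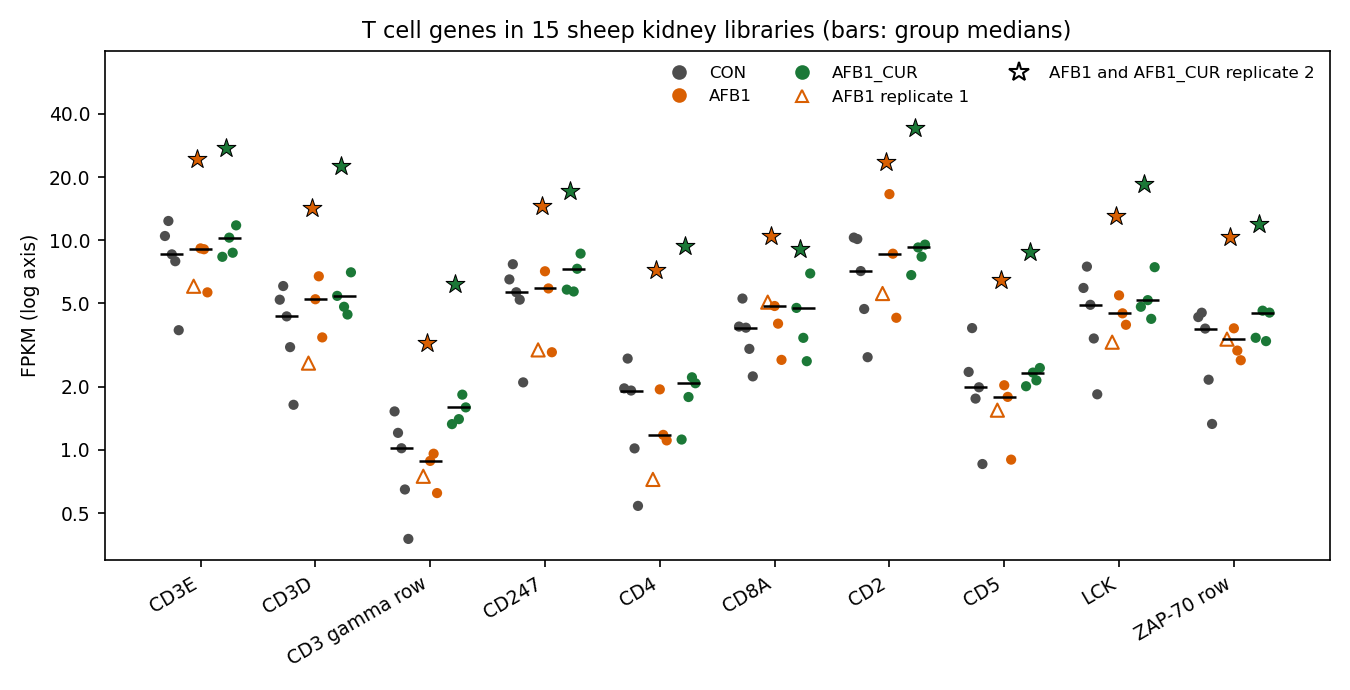
FPKM of each gene (log axis) in the 15 libraries, by group, with a bar at each group's median, a triangle for AFB1 replicate 1 and stars for AFB1 replicate 2 and AFB1_CUR replicate 2. The stars stand above all other points for each gene, as for CD3E at 24.3 and 27.6 against 3.72 to 12.3 in the 12 reference libraries.

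Taken by level in the 12 reference libraries, the median FPKM ran from 8.88 for CD3E and 8.48 for CD2 through 5.85 for CD247, 5.01 for CD3D, 4.87 for LCK and 3.85 for CD8A to 2.02 for CD5 and 1.85 for CD4. Neighbours in this order overlapped: each gene's highest library among the 12 stood 3.09 (CD8A) to 5.99 (CD2) times above its lowest. In all 8 members the lowest was CON replicate 5.

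Within a library the members stood high or low together. In AFB1_CUR replicate 2 the 8 genes were 2.35 (CD8A) to 5.09 (CD4) times their 12-library medians, with a median fold of 3.93, and 7 of the 8 reached their highest level of the 14 libraries other than AFB1 replicate 1 there. In AFB1 replicate 2 the folds were 2.49 (CD247) to 3.87 (CD4), with a median of 2.76. CON replicate 5 was at 0.292 (CD4) to 0.582 (CD8A) times the medians, with a median of 0.369. The next lowest of the 14 libraries other than AFB1 replicate 1 were AFB1 replicate 5, at a median of 0.617, and CON replicate 4, at 0.743. The median fold over the 13172 tested genes with a 12-library median of at least 0.5 FPKM was 1.17 in AFB1_CUR replicate 2, 1.08 in AFB1 replicate 2 and 0.990 in CON replicate 5. AFB1 replicate 1 had a median fold of 0.664 over the members, from 0.390 (CD4) to 1.32 (CD8A), beside 0.595 over all tested genes.

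**Figure D2:**
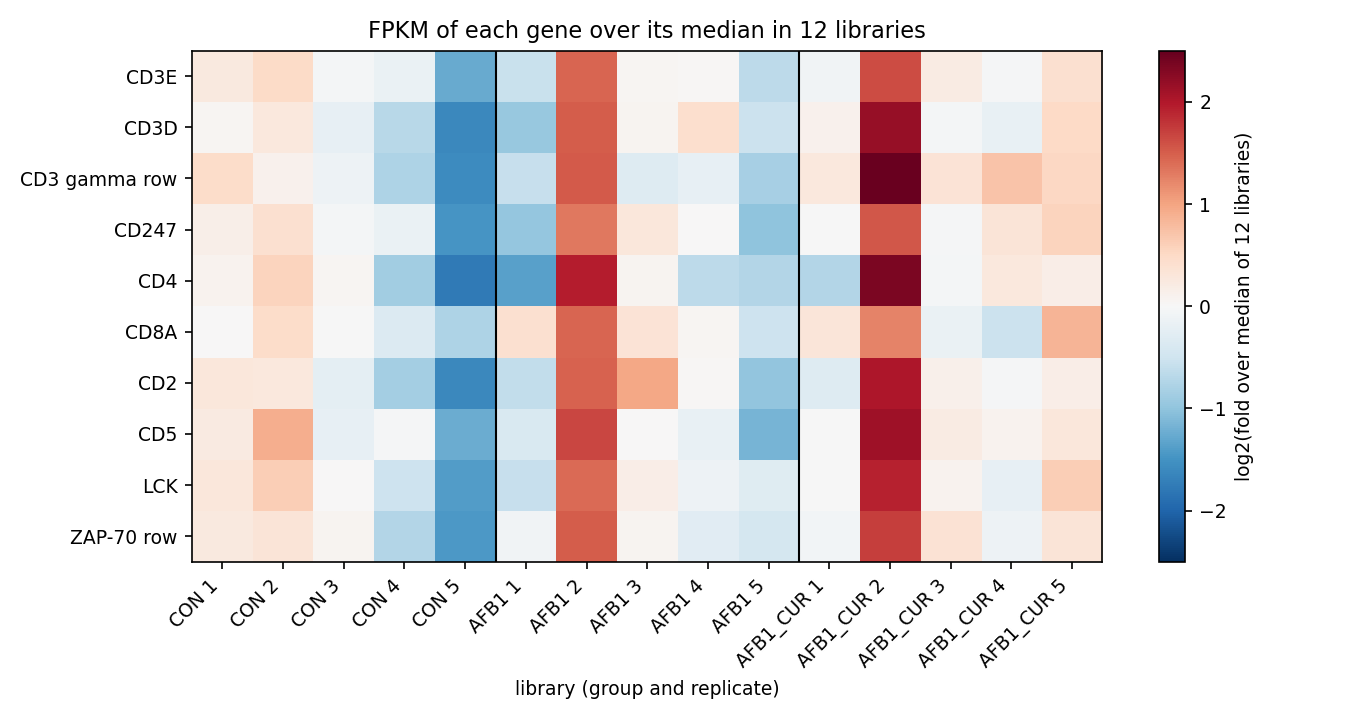
Fold of each gene's FPKM over its median in the 12 reference libraries, as a colour on a log2 scale, for the 15 libraries in columns. The columns of AFB1 replicate 2 and AFB1_CUR replicate 2 are red in every row, with median member folds of 2.76 and 3.93, and that of CON replicate 5 is blue in every row, with 0.369.

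The spread of these genes between libraries, taken across the 3 groups together, was wide. The SD of log2(FPKM + 1) over the 14 libraries had a median of 0.68 over the members (0.54 to 0.85), beside a median of 0.23 over all tested genes. These 14 hold AFB1 replicate 2 and AFB1_CUR replicate 2, whose levels were known when the genes were chosen, so the values are a description. Over the 12 reference libraries the member median was 0.42, beside 0.21.

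The comparison of AFB1 with CON asks whether the toxin changed the level of T cell transcripts. None of the 8 members was called in edgeR's quasi-likelihood test at an unadjusted p under 0.05 with a fold change above 1.5, where 4.84% of the 13193 tested genes were called. At a Benjamini-Hochberg adjusted p under 0.05 no member and 0% of the tested genes passed, while 1071 genes had an unadjusted p under 0.05, and DESeq2 passed 7 genes at that adjusted threshold. All 8 members had a log2 fold change above 0, from 0.32 for CD5 to 0.79 for CD2, with a median of 0.51 beside 0.027 over all tested genes. With limma on log2(FPKM + 1) the member median was 0.22 beside -0.10, and on log2(FPKM + 0.1) it was 0.27 beside -0.14. The smallest adjusted p in edgeR's test was 0.629, for CD8A, whose log2 fold change was 0.71 with an SE of 0.36. CD3E had a log2 fold change of 0.40 (SE 0.39), and CD4 one of 0.58 (SE 0.63).

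Without AFB1 replicate 1 the result for AFB1 against CON was much the same, with no member called, 1.75% of the tested genes called and a member median of 0.52. The positive median rested on AFB1 replicate 2. When that library alone was left out, the median was 0.024, and 4 members lay on each side of 0, CD2 at the upper end with 0.47 and CD4 at the lower end with -0.24. Without the 3 libraries AFB1 replicate 1, AFB1 replicate 2 and AFB1_CUR replicate 2, the median was 0.00018, from -0.42 for CD5 to 0.49 for CD2, with no member called and 2.03% of the tested genes called. These libraries were left out because of their measured levels, so the last values are a description. CON replicate 5, the lowest library, also weighed on the median, which was 0.29 without it. CD8A was called when CON replicate 2 (log2 fold change 0.84) or AFB1 replicate 5 (0.87) was left out, where 4.05% and 7.27% of the tested genes were called.

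The comparison of AFB1_CUR with CON shares its CON libraries with the one above. Again none of the 8 members was called, where 0.993% of the tested genes were, and no member and 0% of the genes passed the adjusted threshold; 360 genes had an unadjusted p under 0.05, and DESeq2 passed 1 gene at that adjusted threshold. All 8 log2 fold changes were above 0, from 0.46 for CD8A to 0.999 for CD3D (SE 0.48), with a median of 0.64 beside 0.0030 over all tested genes. CD4 was at 0.90 (SE 0.63), CD2 at 0.84 (SE 0.49) and LCK at 0.66 (SE 0.43). The adjusted p was 0.9996 for each of the 8 members in edgeR's test.

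Leaving out AFB1 replicate 1, which is in neither group but shares the estimate of the spread, gave a median of 0.63 for AFB1_CUR against CON, with no member called and 1.64% of the tested genes called. Without AFB1_CUR replicate 2 the median was 0.22. It was also 0.22 without all 3 libraries, from 0.05 for CD5 to 0.40 for CD3D, with no member called and 0.963% of the tested genes called. CD3D was called when any of CON replicate 2, AFB1 replicate 2 or AFB1_CUR replicate 1, 3 or 4 was left out, with log2 fold changes of 0.999 to 1.17, and in DESeq2. In the order given, 1.2%, 1.21%, 1.45%, 1.18% and 1.53% of the tested genes were called in those fits, and 1.28% in DESeq2. The CD3 gamma row was called with all libraries at a log2 fold change of 1.24 (SE 0.51), with an adjusted p of 0.9996 in edgeR's test. It was no longer called without CON replicate 4 (1.14), CON replicate 5 (1.04) or AFB1_CUR replicate 2 (0.67), or without all 3 libraries (0.67).

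Curcumin added to the toxin is addressed by AFB1_CUR against AFB1, which shares libraries with both comparisons above. No member was called, where 3.98% of the tested genes were. No member and 0% of the genes passed the adjusted threshold, while 765 genes had an unadjusted p under 0.05 and DESeq2 passed 2 genes at that adjusted threshold. Member log2 fold changes ran from -0.24 for CD8A (SE 0.36) to 0.31 for CD4 (SE 0.63), with 7 above 0 and a median of 0.25 beside 0.0013 over all tested genes. Each of these fold changes was smaller than its SE. With limma on log2(FPKM + 1) the member median was 0.33 beside 0.17 over all tested genes. On log2(FPKM + 0.1) it was 0.38 beside 0.22. In edgeR's test the sign depended on which leukocyte-rich library was kept. Without AFB1_CUR replicate 2 alone, all 8 members were below 0, with a median of -0.29. Without AFB1 replicate 2 alone, all 8 were above 0, with a median of 0.63. Without both, 6 members were above 0 and 2 below, with a median of 0.15. The median was 0.086 without AFB1 replicate 5 and 0.14 without AFB1 replicate 4. Without AFB1 replicate 1 it was 0.15, with no member called and 0.94% of the tested genes called. Without the 3 libraries it was 0.21, from -0.24 for CD2 to 0.47 for CD5, with no member called and 1.69% of the tested genes called. As a description, the CD3 gamma row was at 0.75 (SE 0.50) with all libraries and 0.72 (SE 0.54) without AFB1 replicate 1, not called in either, and it passed the call rule at 0.85 (SE 0.37) without the 3 libraries.

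**Figure D3:**
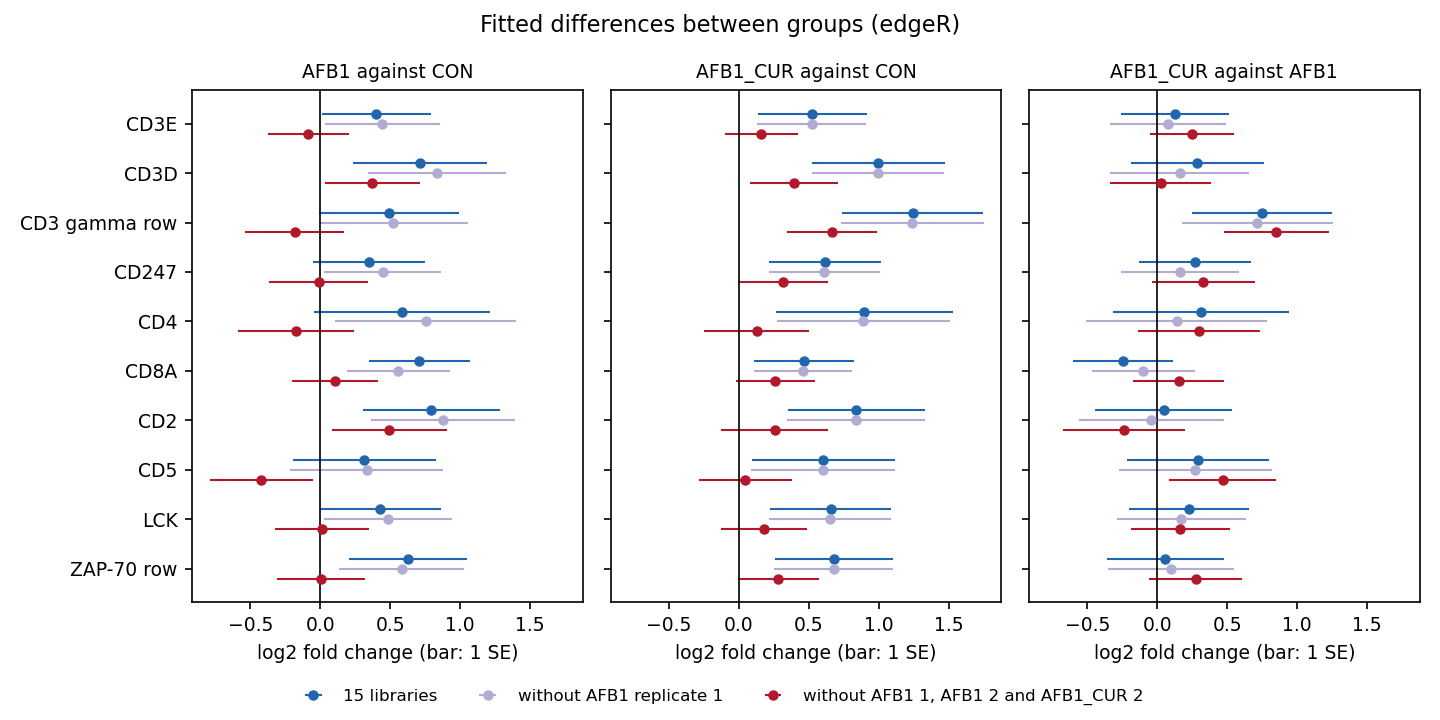
Fitted log2 fold change of each gene with a bar of 1 SE on each side, for the 3 comparisons, from all 15 libraries, without AFB1 replicate 1, and without AFB1 replicate 1, AFB1 replicate 2 and AFB1_CUR replicate 2. For AFB1 against CON the member median is 0.51 with all libraries and 0.00018 without the 3 libraries.

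The group means of FPKM lay in the order CON, AFB1, AFB1_CUR for 7 of the 8 members, and for CD8A the AFB1 mean (5.42 ± 2.99) was just above the AFB1_CUR mean (5.36 ± 2.62). The order rested on the leukocyte-rich libraries: it held for 7 of 8 members without AFB1 replicate 1 and for 2 of 8 without all 3 libraries, where the CD3E means were 8.61, 7.94 and 9.77 and the CD4 means 1.63, 1.41 and 1.80. By group medians over all 15 libraries it held for 4 of 8. None of these neighbours differed beyond the spread of the libraries. For each member the 3 groups overlapped pairwise.

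The members were tied to each other across libraries to different degrees. Pearson's r of log2(FPKM + 1) over the 28 pairs of members had a median of 0.929 over 14 libraries and 0.823 over the 12 reference libraries, and these points share library and depth. CD4 and CD8A were the least alike pair, at 0.840 over 14 libraries and 0.562 over 12. CD3E was most like LCK over 14 libraries, at 0.973, and most like CD247 over 12, at 0.944.

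The CD4 to CD8A ratio of FPKM therefore varied between sheep. It was 0.507, 0.517, 0.502, 0.335 and 0.241 in CON. It was 0.143, 0.684, 0.400, 0.295 and 0.413 in AFB1, and 0.236, 1.04, 0.522, 0.838 and 0.2998 in AFB1_CUR. Only AFB1_CUR replicate 2 had more CD4 than CD8A, AFB1_CUR replicate 4 came next, and the 3 groups overlapped. CD8B, which pairs with CD8A on conventional cytotoxic T cells, was at 1.25 to 5.77 FPKM in the 12 reference libraries, 10.9 in AFB1 replicate 2 and 16.8 in AFB1_CUR replicate 2. Its ratio to CD8A was 0.413 to 1.19 in the 12, 1.04 in AFB1 replicate 2, 1.86 in AFB1_CUR replicate 2 and 1.44 in AFB1 replicate 1, so AFB1_CUR replicate 2 stood further above the rest for CD8B than for CD8A.

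**Figure D4:**
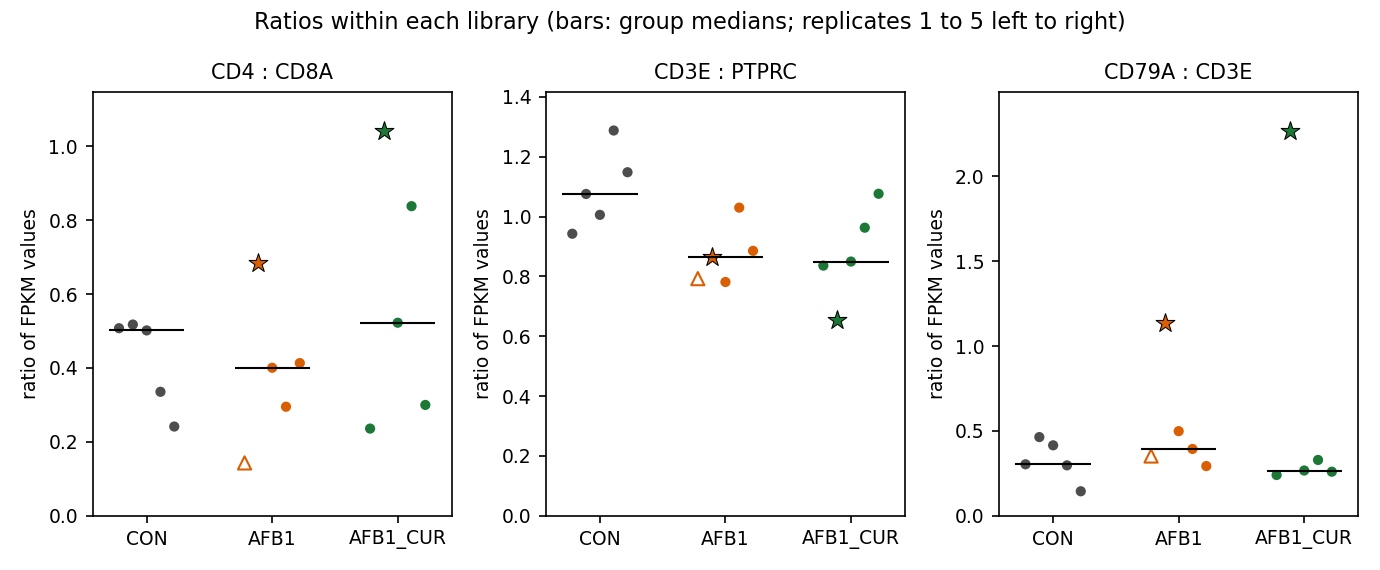
Ratio of FPKM values within each library for CD4 to CD8A, CD3E to PTPRC and CD79A to CD3E, with a bar at each group's median, a triangle for AFB1 replicate 1 and stars for the leukocyte-rich libraries. The CD79A to CD3E ratio is 1.14 and 2.27 in the stars and at most 0.498 in the 12 reference libraries.

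The antigen-binding chains of the receptor could be followed in 82 rows described as T cell receptor chains or WC1, of which 7 passed the filter. The alpha chain row (LOC101110848) was the highest, at 7.41 to 34.7 FPKM in the 12 reference libraries, 61.8 in AFB1 replicate 2 and 82.7 in AFB1_CUR replicate 2, which is 3.33 and 4.45 times its median. The beta chain rows LOC105613374 and LOC101120322 were 2.84 and 2.42 times their medians in AFB1 replicate 2 and 3.37 and 4.01 times in AFB1_CUR replicate 2. Beta chain segments have near-identical copies, so the split of reads between these rows is uncertain. The delta chain row (LOC101106528) was at 4.08 to 13.4 FPKM in the 12, and its folds of 1.73 and 1.85 in the leukocyte-rich libraries were the smallest of these 4 rows. The 17 WC1 rows were low and none passed the filter. How reads that match several of these rows were counted is not named in the sources, so the low values do not give the number of WC1 cells. Their summed FPKM was 0.164 to 1.28 in the 12 reference libraries, 1.89 in AFB1 replicate 2 and 4.52 in AFB1_CUR replicate 2.

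Other genes of receptor signalling and costimulation followed the members. Over the 18 genes of that list with a 12-library median of at least 0.5 FPKM, the median fold was 2.52 in AFB1 replicate 2, 3.68 in AFB1_CUR replicate 2 and 0.391 in CON replicate 5. In AFB1 against CON 1 of 18 tested genes was called higher and none lower, where 4.84% of all tested genes were called, in AFB1_CUR against CON 2 higher and none lower, where 0.993% were, and in AFB1_CUR against AFB1 none. CD96, an adhesion receptor of T and natural killer cells, was called higher in AFB1 (log2 fold change 0.88, SE 0.35, adjusted p = 0.596 in edgeR's test, and 0.96 without AFB1 replicate 1) and in AFB1_CUR (0.85, SE 0.35, adjusted p = 0.9996 in edgeR's test) against CON. IL7R, the interleukin 7 receptor of naive and memory T cells, was called higher in AFB1_CUR against CON, at 1.45 (SE 0.63) and an adjusted p of 0.9996 in edgeR's test. None of these calls was present without the 3 libraries, where SIT1, an adaptor that dampens receptor signalling, was called lower in AFB1 against CON.

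Abundant genes of this list included PTPRC, the leukocyte phosphatase CD45, at 3.24 to 12.1 FPKM in the 12 reference libraries, 28.1 in AFB1 replicate 2 and 42.2 in AFB1_CUR replicate 2. IL2RG, the shared cytokine receptor chain, was at 3.94 to 16.6, then 39.5 and 63.9. PLCG1, a phospholipase that many other cells also express, was 1.32 times its median in AFB1 replicate 2 and 1.43 times in AFB1_CUR replicate 2.

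Cytotoxic and natural killer genes had a median fold over 8 genes of 1.81 and 1.93 in those libraries, with CD8B at 4.08 and 6.27 the highest in AFB1 replicate 2 and AFB1_CUR replicate 2. CCL5, a chemokine of cytotoxic cells, was at 4.02 to 22.1 FPKM in the 12 reference libraries and at 22.3 and 22.6 in AFB1 replicate 2 and AFB1_CUR replicate 2. NKG7 and CTSW, a granule protein and a protease of cytotoxic cells, were 2.00 and 1.44 times their medians in AFB1 replicate 2 and 1.95 and 1.56 times in AFB1_CUR replicate 2. In AFB1 against CON, where 4.84% of all tested genes were called, 1 of the 8 was called, CD8B, which was not called there without AFB1 replicate 1, and in AFB1_CUR against CON, beside 0.993%, 1 was called, KLRK1, an activating receptor, at a log2 fold change of 0.78 (SE 0.33, adjusted p = 0.9996 in edgeR's test). In the latter comparison CD8B was called as well without AFB1 replicate 1. In AFB1_CUR against AFB1 none was called, and without the 3 libraries none was called in any comparison. Of 10 tested genes of helper, regulatory and naive T cells none was called in any comparison, and the most abundant of them, the transcription factor MAF, was below its 12-library median in both leukocyte-rich libraries, at 0.602 times in AFB1 replicate 2 and 0.647 times in AFB1_CUR replicate 2.

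Genes of other leukocytes stood higher in the same libraries, so the T cell values are given beside them. The B cell list (20 of 20 genes measured) summed to 9.86 to 34.7 FPKM in CON, 16.1 to 130 in AFB1 and 20.4 to 421 in AFB1_CUR, with the highest sums in the second replicates. Its median fold over the 7 genes with a 12-library median of at least 0.5 FPKM was 4.70 in AFB1 replicate 2 and 8.66 in AFB1_CUR replicate 2, above the member medians of 2.76 and 3.93. CD79A, a chain of the B cell receptor, was 9.35 and 21.2 times its median there, and its ratio to CD3E was 1.14 and 2.27, against 0.144 to 0.498 in the 12 reference libraries. Of 6 tested B cell genes, 3 were called higher in AFB1_CUR against CON, where 0.993% of all tested genes were called, namely BLNK at a log2 fold change of 1.39 (SE 0.64), BANK1 at 1.47 (SE 0.53) and VPREB3 at 2.18 (SE 0.87), each with an adjusted p of 0.9996 in edgeR's test. BANK1, a scaffold protein of B cell receptor signalling, was the only one called without the 3 libraries, and it was also called in AFB1 against CON without AFB1 replicate 1. MS4A1, which codes for CD20 and was named after its values were seen, was at 0.026 to 0.983 FPKM in the 12, 7.57 in AFB1 replicate 2 and 46.3 in AFB1_CUR replicate 2. The plasma cell gene JCHAIN was at 6.27 to 82.3 FPKM in the 12, then 559 and 856. Of 6 tested plasma cell genes, 4 were called higher in AFB1 against CON, beside 4.84% of all tested genes, and JCHAIN among them had a log2 fold change of 2.65 (SE 1.23, adjusted p = 0.609 in edgeR's test, and 2.94 without AFB1 replicate 1). In AFB1_CUR against CON, beside 0.993%, JCHAIN alone was called, at 3.04 (SE 1.25, adjusted p = 0.9996 in edgeR's test), and in AFB1_CUR against AFB1, beside 3.98%, XBP1 and SDC1 were called lower. The calls of XBP1 and SDC1 were lost without AFB1 replicate 1. In that fit 3 were called higher in AFB1 against CON, beside 1.75% of all tested genes, namely JCHAIN, MZB1 and DERL3. MZB1 was at a log2 fold change of 3.44 (SE 1.43) with all libraries and 3.75 without AFB1 replicate 1. None of the 6 genes was called without the 3 libraries.

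The macrophage and myeloid list (21 of 22 genes measured) summed to 85.6 to 215 FPKM in CON, 96.0 to 576 in AFB1 and 137 to 509 in AFB1_CUR, and its median fold was 2.05 in AFB1 replicate 2 and 2.98 in AFB1_CUR replicate 2. C1QB, a complement gene of tissue macrophages, was 1.96 and 3.22 times its median. In AFB1 replicate 1 the myeloid score of 3.10 was above the 1.67 to 2.60 of the 12, whereas the T cell score of 2.03 lay within their range of 1.49 to 2.88. With all libraries 6 of 15 tested myeloid genes were called higher in AFB1 against CON, beside 4.84% of all tested genes, and none was without AFB1 replicate 1. CD14 was called lower in AFB1_CUR against AFB1, but not without that library, and CD68 was called higher in AFB1_CUR against CON without it, but not with it. None of 12 tested pan leukocyte genes was called in any comparison. The pan leukocyte list (14 of 15 genes measured) summed to 56.5 to 179 FPKM in CON, 87.6 to 376 in AFB1 and 116 to 598 in AFB1_CUR. Its median folds were 3.01 and 5.39 in the leukocyte-rich libraries, and CD3E per PTPRC was 0.864 and 0.654, against 0.781 to 1.29 in the 12. Of the defining markers, none of CD79A, MS4A1, CD14, C1QB and PTPRC was at 0 in any library.

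The list of lymphoid stroma and chemokines had median folds over 11 genes of 2.56 in AFB1 replicate 2 and 3.79 in AFB1_CUR replicate 2, where MADCAM1 was lowest at 0.406. Of 11 tested genes, 1 was called higher in AFB1 against CON, beside 4.84% of all tested genes, namely ICAM1, which was not called without AFB1 replicate 1. In AFB1_CUR against CON, beside 0.993%, 1 was called higher, TNFSF13B (log2 fold change 1.06, SE 0.47, adjusted p = 0.9996 in edgeR's test), which was not called without the 3 libraries. CCL19 and CCL21, chemokines that guide T cells, were 4.55 and 1.14 times their medians in AFB1 replicate 2 and 16.9 and 3.79 times in AFB1_CUR replicate 2. The cell cycle list had median folds of 2.99 and 6.51 in those libraries, with PCNA, the replication clamp, at 1.77 and 2.71. Proximal tubule genes had median folds of 0.600 and 0.519 there and 1.87 in CON replicate 5. The same median was as low in AFB1 replicates 3 (0.596) and 4 (0.476), where the members had median folds of 1.08 and 1.01. It was 1.63 in AFB1 replicate 5 and 1.19 in CON replicate 4, where the members had median folds of 0.617 and 0.743. AQP1 of this list, a water channel, was 2.82 times its median in AFB1 replicate 2. SLC5A2, the glucose transporter of the early proximal tubule, had an FPKM of 163 in AFB1 replicate 2, 152 in AFB1_CUR replicate 2 and 411 in CON replicate 5. The part of these other cell types, or of the piece of kidney taken, in the T cell values was not tested.

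**Figure D5:**
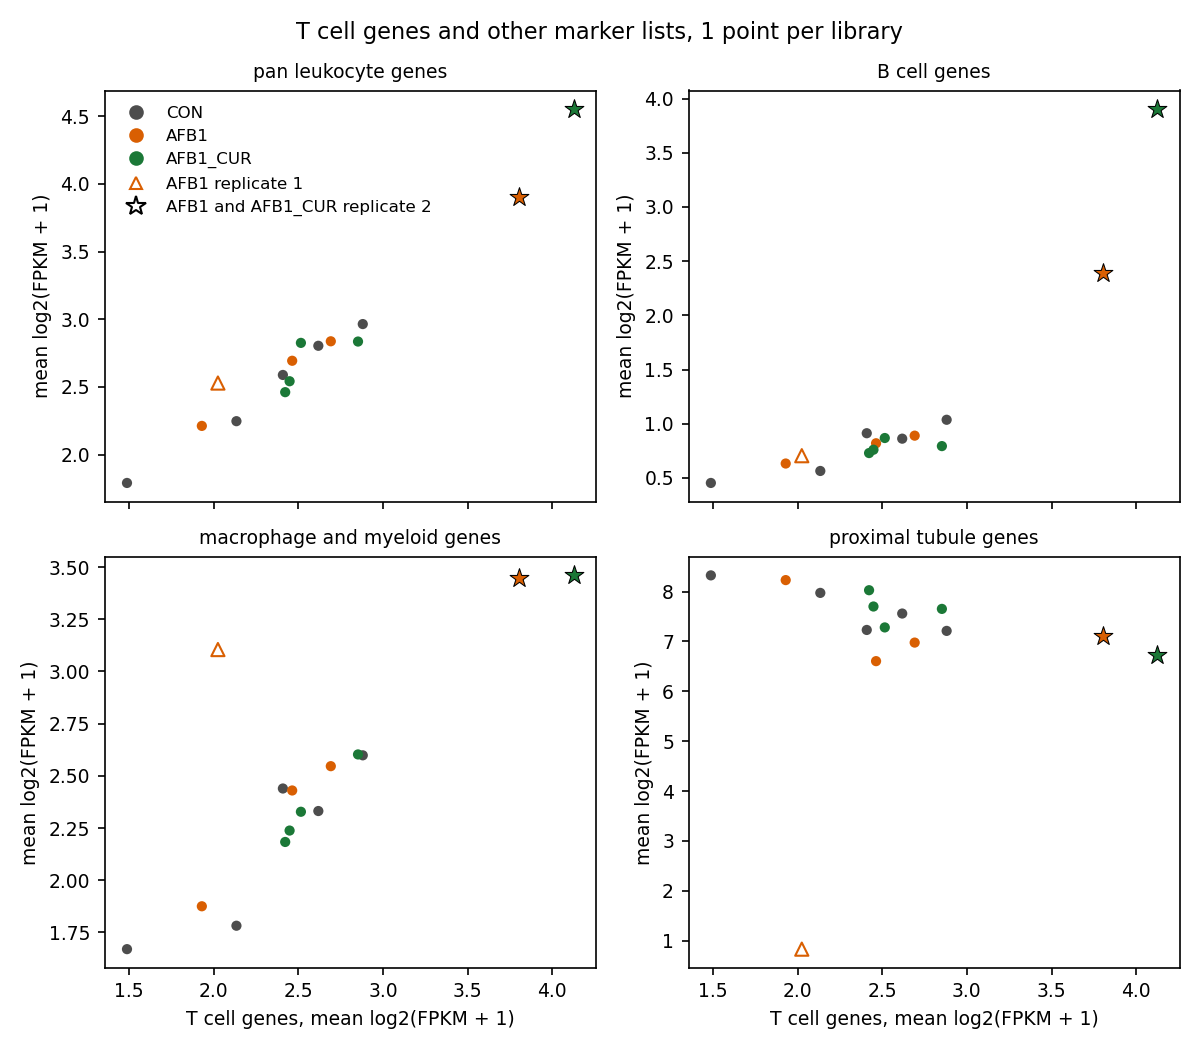
Mean log2(FPKM + 1) of the 8 T cell genes (x axis) against that of pan leukocyte, B cell, macrophage and myeloid, and proximal tubule lists (y axes), with a point per library, a triangle for AFB1 replicate 1 and stars for the leukocyte-rich libraries. In CON replicate 5 the T cell score of 1.49 is the lowest and the proximal tubule score of 8.32 the highest.

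As a description over the 12 reference libraries, the mean T cell score correlated with the pan leukocyte score at r = 0.969, with the myeloid score at 0.927, with the endothelium score at 0.890 and with the B cell score at 0.875. It correlated with the loop and collecting duct score at 0.696, with the plasma cell score at 0.548 and with the proximal tubule score at -0.659. The points share library and depth, and PTPRC is in both the signalling and the pan leukocyte list.

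The tested genes whose profile over the 14 libraries was most like the mean of the members are given by rank. LAPTM5, a lysosomal membrane protein of blood cells, was first with Pearson's r of 0.991. TBC1D10C, which codes for carabin, an inhibitor of calcineurin, followed at 0.990, PTPN7, a phosphatase of blood cells, at 0.989, and FMNL1, a formin of leukocytes, at 0.988. The rest of the closest 15 were ARHGAP30, ARHGAP45, SASH3, SEPTIN1, FXYD5, PTPRC, IL2RG, NCKAP1L, BIN2, DENND1C and CORO1A, down to an r of 0.978. LAPTM5, PTPRC, NCKAP1L and CORO1A of these also stood in the pan leukocyte list. Over the 12 reference libraries LAPTM5 was again first, at 0.983, followed by APBB1IP, an adaptor of integrin activation, at 0.982, then TBC1D10C, CYTH3, DENND1C, PARVG, PTPN7, FXYD5, FMNL1 and SASH3, down to 0.958. Of these 10 genes, 7 were among the 15 above. Ranking depended on the measure, since by Spearman's rho 2 of the 15 and 3 of the 10 kept a place. The ZAP-70 row ranked 23 over 14 libraries and 53 over 12, and the CD3 gamma row 247 and 717.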

How the data were processed

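Kidney mRNA of 15 sheep, 5 per group, was sequenced as paired-end reads. The authors removed reads with adapters or many low-quality bases, aligned the rest with HISAT2 and deposited raw read counts and FPKM values per gene. The submitters' processing notes name cutadapt 1.9, HISAT2 2.2.1, StringTie 2.1.6, DESeq2 and edgeR without roles; neither the counting step with its strand setting nor a genome build is named in the sources used here. Chromosome numbers came from RefSeq's gene table, in which the 10 rows given here had the same positions. Groups were taken from the sample titles, because the labels' treatment field counts upward within a group.

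Counts were fitted here with edgeR 4.0.16 (TMM, quasi-likelihood test, R 4.3.3), with all 15 libraries in the same model, over the 13193 genes that reached 1 FPKM in 5 or more libraries; Benjamini-Hochberg adjustment ran over all of them. The test code was run on counts simulated from the CON and AFB1_CUR libraries, with changes larger than those of the members. That run does not show how the test performs at differences of the members' size. The rule for a call, after the authors', was a fold change above 1.5 with an unadjusted p under 0.05. Between 50255295 and 68747047 counts per library stood behind the values. P-values rest on the spread between libraries within the groups. In fits with AFB1 replicate 1 that spread includes its unlike markers, and pens were not in the model. Alternatives were DESeq2 1.42.0, no filter, limma 3.58.1 on log2(FPKM + 1) and log2(FPKM + 0.1), a replicate block, only the groups compared, and fits without each library, without AFB1 replicate 2 and AFB1_CUR replicate 2, and without these and AFB1 replicate 1.

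The members and all gene lists were chosen with earlier results of these data known. Genes named from each other list were its 4 with the highest mean FPKM and those called with all libraries and without AFB1 replicate 1. Some of these genes are not reported here. For likeness, the closest 15 genes over 14 libraries and 10 over 12 were named, and of the receptor rows the 4 highest. MS4A1, SIT1, AQP1, MADCAM1, SDC1, CD68, CD8B as a called gene and the ZAP-70 and CD3 gamma rows were named after their values were seen.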

Additional observations from a re-analysis of the deposited data

Results flagged for a closer look

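In the groups of 5 libraries, the gap between the highest library and the next was divided by the range of the group, and the quotient was above 0.71, Dixon's 95% critical value, in 11 cases, all of them in a leukocyte-rich library. These libraries were marked and the genes chosen with their high values known, so the quotients describe the gaps and test nothing. In AFB1_CUR replicate 2 the quotient was 0.821 for CD3E, 0.856 for CD3D, 0.902 for CD2, 0.868 for CD4, 0.934 for CD5, 0.743 for CD247 and 0.775 for LCK. In AFB1 replicate 2 it was 0.813 for CD3E, 0.811 for CD4, 0.796 for CD5 and 0.774 for LCK. CD8A passed in neither group. Chance flags about 1 in 20 groups, and the 8 genes move together, so these are not independent cases. No cause was tested.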

How the results depend on the processing

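Of the tests that gave no call among the 8 genes, DESeq2 called 1 in AFB1_CUR against CON (CD3D), beside 1.28% of all tested genes. A replicate block called 1 in AFB1 against CON (CD2, log2 fold change 0.72), beside 2.48% of all tested genes. It called 2 in AFB1_CUR against CON (CD3D 0.86, CD2 0.78), beside 1.42%. Replicate numbers were not taken to pair the samples: 6 of 15 same-numbered pairs deviated together with r over 0.1, in a range of -0.28 to 0.39, the 3 highest being those of replicate 2 (0.325, 0.375 and 0.389), the number of both leukocyte-rich libraries, and in 9 of 30 cases the closest library of another group bore the same number. Leaving out 1 library at a time gave 0 to 1 calls in both comparisons with CON. Values turned sign in AFB1 against CON without AFB1 replicate 2 and AFB1_CUR replicate 2, and without these and AFB1 replicate 1: CD3E to -0.014 and -0.085, CD4 to -0.24 and -0.17, CD5 to -0.23 and -0.42, CD247 to -0.048 and -0.013, and the CD3 gamma row to -0.035 and -0.18. In AFB1_CUR against AFB1, CD2 turned to -0.21 and -0.24 in these fits and CD8A to 0.15 in the second. With 1 library left out, AFB1 against CON ran from -0.0096 to 0.55 for CD3E, -0.24 to 0.81 for CD4, -0.23 to 0.58 for CD5, -0.044 to 0.52 for CD247 and -0.030 to 0.74 for the CD3 gamma row. AFB1_CUR against AFB1 ran from -0.24 to 0.54 for CD3E, -0.31 to 0.70 for CD3D, -0.54 to 0.38 for CD2, -0.46 to 1.14 for CD4, -0.45 to 0.0076 for CD8A, -0.27 to 0.83 for CD5, -0.032 to 0.66 for CD247, -0.25 to 0.60 for LCK and -0.34 to 0.44 for the ZAP-70 row. The cause of these changes was not tested beyond which library was left out. Over the 8 members with the ZAP-70 and CD3 gamma rows, 636 single-gene values kept their direction and side of the threshold. A further 15 passed it newly, 5 no longer did and 34 turned sign. The 5 that no longer passed were all of the CD3 gamma row, the only row called with all libraries. With 5 libraries per group the SE of the members was 0.36 to 0.63 on the log2 scale, and the effect of depth on it was not tested.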

Other observations

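Some genes of organised lymphoid tissue were close to 0 in most libraries and higher in the leukocyte-rich ones. They were named after their values were seen. CXCL13, the chemokine that draws B cells into follicles, was at 0 to 2.24 FPKM in the 12 reference libraries, 22.2 in AFB1 replicate 2 and 28.8 in AFB1_CUR replicate 2. CCR7, the receptor that brings naive T cells into lymph nodes, was at 0.018 to 0.4997 FPKM, then 1.49 and 2.70. FOXP3 of regulatory T cells was low throughout, at 0.164 to 0.417 FPKM in the 12, 0.487 in AFB1 replicate 2 and 0.394 in AFB1_CUR replicate 2.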
